A study of Bombyx mori with 12 samples.

Results

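The genes described here encode structural proteins of the insect cuticle that lack the Rebers-Riddiford (RR) chitin-binding motif, chiefly the glycine-rich (CPG) and hypothetical (CPH) classes of the silkworm Bombyx mori. They were chosen by name and product in the deposited table: names beginning BMORCPG, BMORCPH, BMORCPT or BMORCPF, or a product described as cuticle or cuticular. Rows named BMORCPR and neuropeptide-like products were left out. This gave 74 of 15745 listed genes: 35 CPH, 27 CPG, 3 CPF, 2 CPT and 7 that carry the name of an RR-type protein. Those 7 (CPR41, CPR149, CPR4, CPR2, CPR69, LCP22 and BMWCP11) passed the rule because their names do not begin with BMORCPR, so the heading of non-RR proteins holds for 67 of the 74. The RefSeq gene table gives LCP22 and BMWCP11 as CPR38 and CPR46.

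The study sequenced RNA from ovaries of female pupae, 3 libraries in each of 4 groups: line TBH at pupal stage P4, WT at P4, TBH at P2 and WT at P2. By its title the series concerns hyperproteinemia, a raised protein level in the blood, modelled genetically in silkworms. The labels do not spell out TBH, its alleles or its genetic background. The treatment protocol gives 5 pupae and n = 3, and the labels do not say whether each library pools pupae. P-values therefore measure the spread between these 3 libraries per group, which may be partly technical.

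Cuticle proteins are secreted by epidermal and other ectodermal cells and assemble with chitin into the exoskeleton and the linings of the gut, tracheae and genital ducts. RR proteins bind chitin through their shared motif, whereas CPG proteins carry glycine-rich repeats and CPH proteins are grouped only because they fit no other family. Cuticle protein genes are known for sharp bursts of transcription around each moult, under the control of ecdysteroid hormones.

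The deposited values are normalised, and their unit is not named, so the level of a gene was compared between libraries but not with other genes. Sums over genes and shares of a sum are also given, and these depend on that unit. The sum of the values over all genes ran from 468559 to 664134 per library, and 6399 to 7772 genes were above 0. Pearson's r between replicates, across genes on the log2(value + 1) scale, was lowest within WT P2 (0.838 to 0.889) and was 0.901 to 0.938 in the other groups. WT P2 replicate 2 had both the largest sum and the fewest genes above 0, and it is the library on which several results below rest. The vitelline membrane gene VMP23 lay between 401 and 1210 in the P4 libraries, against 3.16 to 13.4 in the P2 libraries. VMP90, named likewise, was at most 0.12 in any library. The germ line genes SIWI and NANOSO were listed at 0 in all 12 libraries. The name match for germ line genes also took in VIG, described as a vasa intronic protein, which lay between 1583 and 2335 and was left out by product after the values were read.

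Of the 74 cuticle genes, 9 (12.2%) were listed at 0 in all 12 libraries, against 28.8% of all listed genes. A value of 1 was never reached by 35 (47.3%), against 55.7% of all listed genes, and 12 were above 0 in every library. Testing required 3 or more libraries with values of 1 or higher. This was met by 27 (36.5%), against 33.2% of all listed genes: 14 CPH, 7 CPG, 4 RR-named and both CPT, which carry a Tweedle motif. No CPF gene passed, and the highest CPF value was 0.34. Among the 47 genes that did not pass, 12 reached 1 in 1 or 2 libraries, with a highest value of 9.23. A value of 1 was reached in some P4 library by 30 of the 74 genes and in some P2 library by 34. A gene that passed only through libraries of 1 stage was favoured to differ between stages, and likewise for lines. Counts over the 27 therefore describe those genes and not all 74.

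**Figure D1:**
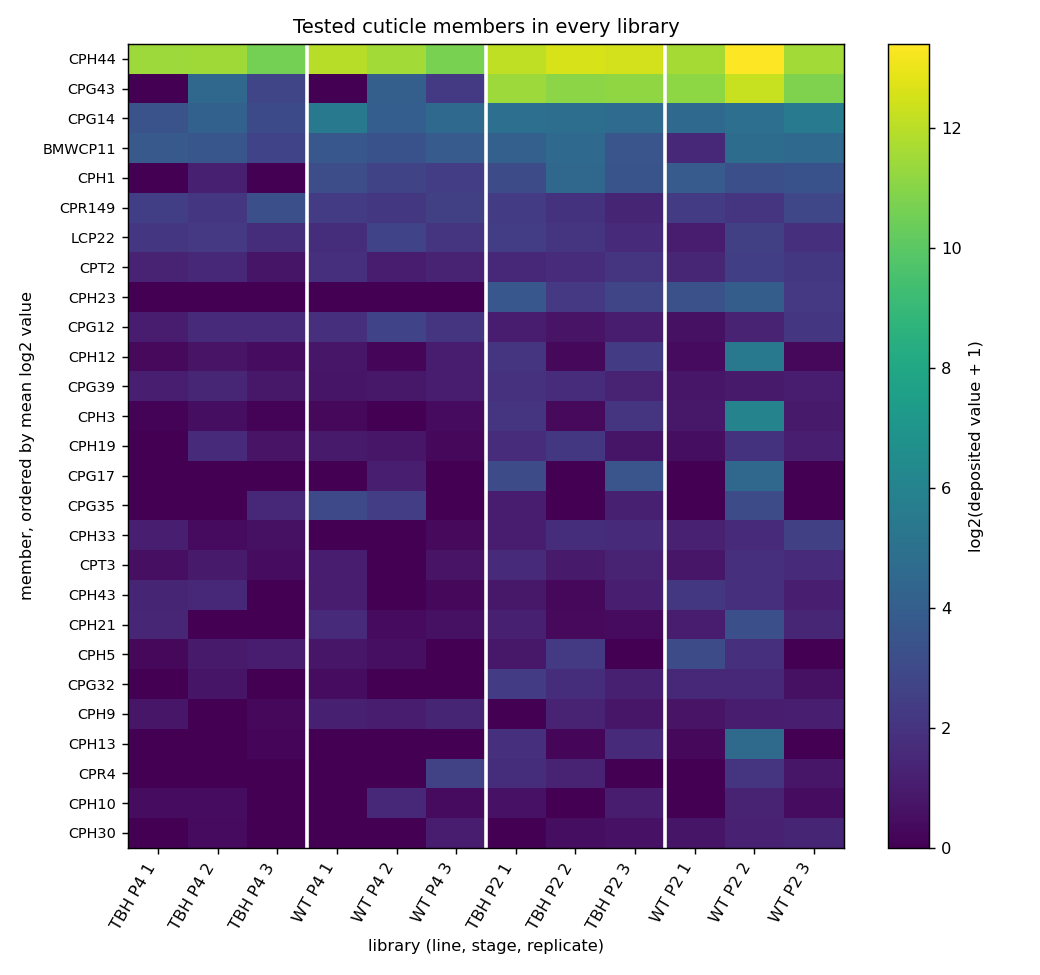
The 27 tested cuticle genes (rows, ordered by mean) in the 12 libraries (columns, by line, stage and replicate), coloured by log2(deposited value + 1). CPH44 is high in every library, CPG43 in the P2 libraries, and CPH3, CPH12 and CPH13 stand out in WT P2 replicate 2.

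A pair of genes, CPG43 (BGIBMGA011713) and CPH44 (BGIBMGA005303), carried 96.0% to 98.8% of the summed value of the 74 genes in each library. At P4 this was nearly all CPH44, which lay between 1544 and 4008, while CPG43 lay between 0 and 21.7. The 74 genes summed to 2458 ± 756 in TBH P4 and 2966 ± 1171 in WT P4, against 7963 ± 515 in TBH P2 and 8822 ± 6325 in WT P2 (SD, n = 3 each). As a share of all listed signal this was 0.317% to 0.522% in TBH P4 and 0.297% to 0.737% in WT P4, against 1.35% to 1.53% in TBH P2 and 1.05% to 2.43% in WT P2. Every P4 library lay below every P2 library in this sum. In bulk tissue, fewer cells of a type and less RNA per cell cannot be told apart.

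**Figure D2:**
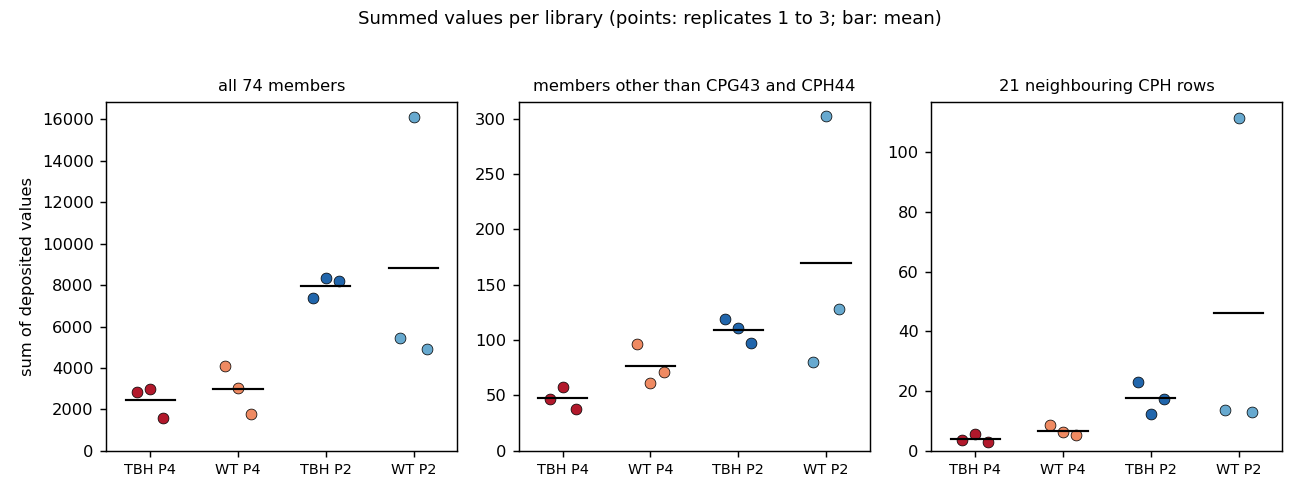
Sums of deposited values per library for all 74 genes, for the 72 other than CPG43 and CPH44, and for the 21 neighbouring CPH rows; points are replicates and bars are group means. P4 libraries lie below all P2 libraries in the first and last panels and overlap WT P2 in the middle one, and WT P2 replicate 2 is the highest library in each. The separation in the last panel rests on CPH23.

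The clearest change with stage was in the glycine-rich gene CPG43. Its values were 0, 21.7 and 5.92 in TBH P4 and 0, 15.9 and 3.85 in WT P4, against 2754, 2136 and 2305 in TBH P2 and 2257, 5001 and 1779.5 in WT P2. The lowest P2 library was far above the highest P4 library in both lines. Changes are given on the log2(value + 1) scale minus the median change of all 5235 tested genes, which was -0.21 for P4 against P2 in TBH and -0.42 in WT. CPG43 fell in both lines, with changes of -8.58 ± 1.10 in TBH (SE, limma adjusted p = 0.0011) and -8.87 ± 1.10 in WT (limma adjusted p = 0.00043).

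CPH23 (BGIBMGA011719), a hypothetical cuticle protein gene, was listed at 0 in all 6 P4 libraries. At P2 its values were 11.65, 3.72 and 5.95 in TBH and 9.18, 14.6 and 3.74 in WT. It fell at P4 in both lines, with changes of -2.69 ± 0.48 in TBH (limma adjusted p = 0.0088) and -2.76 ± 0.48 in WT (limma adjusted p = 0.0024). It passed the filter only through its P2 values. Fitted with only the 2 WT groups, its WT call was lost (limma adjusted p = 0.0536).

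CPH1 (BGIBMGA009714) fell at P4 in TBH. Its values were 0, 1.24 and 0 in TBH P4 and 8.03, 5.79 and 4.48 in WT P4, against 7.37, 21.7 and 10.4 in TBH P2 and 13.3, 8.68 and 9.54 in WT P2. TBH P4 libraries lay below all the others, and WT P4 libraries lay below WT P2 without overlap. The stage change was -3.09 ± 0.47 in TBH (limma adjusted p = 0.0030) and -0.28 ± 0.47 in WT, with a 95% interval of -1.32 to 0.75 (limma adjusted p = 0.401). Fitted with only the 2 TBH groups, the TBH call was lost (limma adjusted p = 0.0545).

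CPH33 (BGIBMGA004780) was low throughout, and its call was the weakest. It had values of 1.19, 0.29 and 0.52 in TBH P4 and 0, 0 and 0.28 in WT P4, against 1.03, 2.34 and 2.11 in TBH P2 and 1.31, 1.97 and 4.76 in WT P2. In WT its change at P4 was -1.23 ± 0.41, and -1.65 before the median was taken off. The call (limma adjusted p = 0.045) was lost in 9 of 15 alternative analyses. Among these, limma adjusted p was 0.0774 without WT P2 replicate 3, and 0.138, 0.154 and 0.1 without WT P4 replicates 1, 2 and 3. Like CPH23 it passed the filter only through its P2 values, so a difference between stages was favoured by the choice of tested genes. In TBH the stages overlapped and the change was -0.55 ± 0.41, with a 95% interval of -1.44 to 0.34 (limma adjusted p = 0.545).

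CPH44, described in the table as cuticle protein CPH44 but named CPH43 there, stayed abundant at both stages. Its values were 2775, 2883 and 1544 in TBH P4 and 4008, 2948 and 1691 in WT P4, against 4501, 6071 and 5796 in TBH P2 and 3091, 10816 and 3011 in WT P2. TBH P4 lay below TBH P2 without overlap, whereas the WT stages overlapped. The P4 mean was 0.440 times the P2 mean in TBH and 0.511 times in WT. The WT ratio rested on WT P2 replicate 2, and was 0.945 without it. Neither change passed: -1.02 ± 0.48 in TBH (95% interval -2.07 to 0.04, limma adjusted p = 0.378) and -0.35 ± 0.48 in WT (95% interval -1.41 to 0.70, limma adjusted p = 0.366). Before the median was taken off, the TBH interval was -2.28 to -0.17. Its row and the row BGIBMGA005302, also named CPH43, match a single RefSeq gene, so how reads were divided between them is uncertain.

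CPG14 (BGIBMGA006662), a glycine-rich gene, had values of 9.87, 16.6 and 7.03 in TBH P4 and 42.15, 14.9 and 22.9 in WT P4. At P2 it had 29.1, 27.7 and 24.55 in TBH and 22.9, 28.3 and 45.3 in WT. The TBH stages did not overlap, and the change of -1.07 ± 0.41 had a 95% interval of -1.97 to -0.17 but did not pass (limma adjusted p = 0.218). In WT the change was 0.10 ± 0.41, with a 95% interval of -0.81 to 1.00 (limma adjusted p = 0.676).

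**Figure D3:**
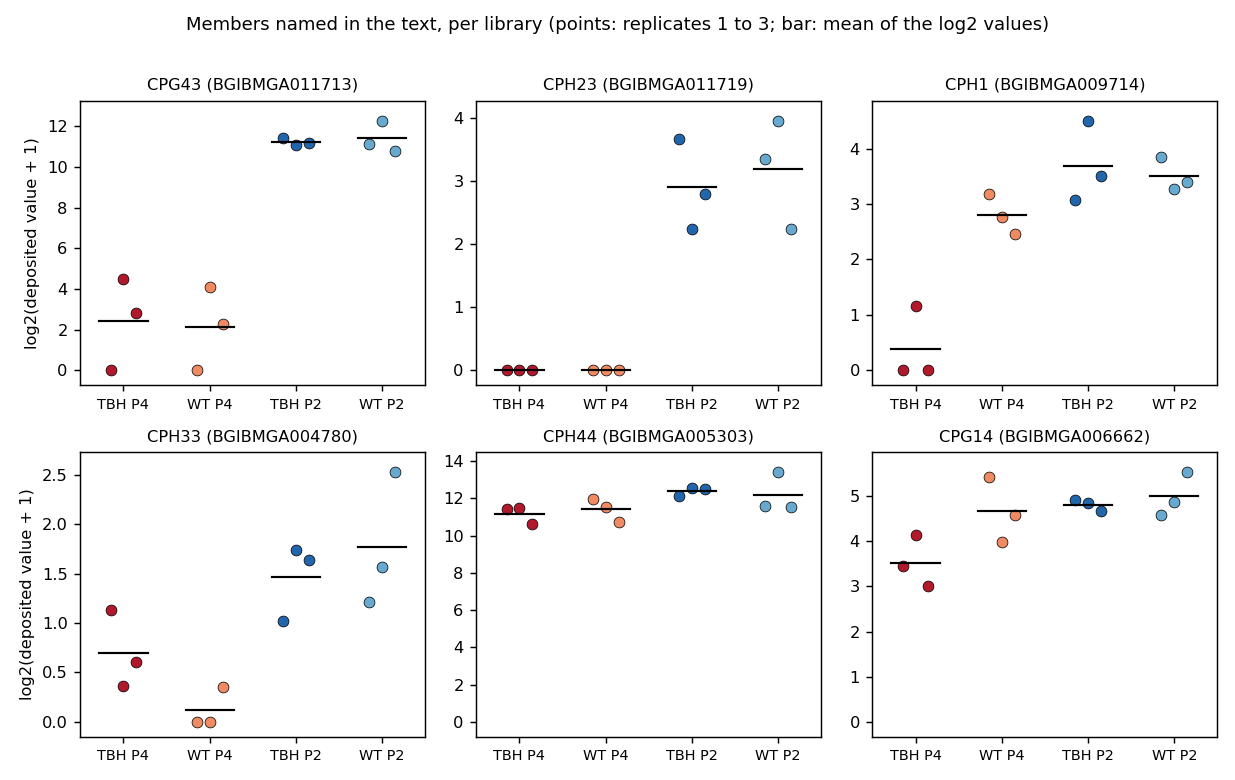
Log2(deposited value + 1) of CPG43, CPH23, CPH1, CPH33, CPH44 and CPG14 by group; points are replicates 1 to 3 and bars the mean of the log2 values. CPG43 and CPH23 are low in both P4 groups, while CPH1 is low in TBH P4 alone among the 4 groups.

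Across the 27 tested genes, 3 fell and 0 rose at P4 in TBH (CPG43, CPH1 and CPH23), where 1.34% of all tested genes fell, 0.363% rose and 1.7% passed in either direction. In WT, 3 fell and 0 rose (CPG43, CPH23 and CPH33). CPH23 and CPH33 were tested only because of their P2 values, so these counts are not support for a fall of the group. The WT count stands against 3.09% of all tested genes falling, 1.01% rising and 4.11% passing in either direction. Groups lay apart with P4 lower for 6 of 27 in TBH, against 11.9% of all tested genes, and for 7 of 27 in WT, against 21.5%, which is near the background. CPG32 and CPH23 are in both of these counts, and CPH3 and CPH33 are in the WT count. Each was tested only because of its P2 values, so these counts are not support for a fall of the group either. In WT 0 of 27 lay apart with P4 higher, against 4.41%. CPG12 was the 1 gene with P4 above P2 without overlap in TBH, against 4.64% of all tested genes. Over both lines together, CPG43 and CPH23 were the members whose 6 P4 libraries lay below all 6 P2 libraries, against 3.3% of all tested genes, and 0 lay above, against 0.688%. The median change of the 27 minus that of all tested genes was -0.55 in TBH and -0.35 in WT. In TBH it ran from -0.66 without TBH P4 replicate 2 to -0.32 without TBH P4 replicate 3. In WT it ran from -0.75 without WT P2 replicate 1 to 0.39 without WT P2 replicate 2. It also depended on which genes were tested. Without the filter, over 65 cuticle genes, it was -0.11 in TBH and -0.018 in WT. A pseudocount of 0.1 gave -0.92 in TBH and -0.43 in WT.

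**Figure D4:**
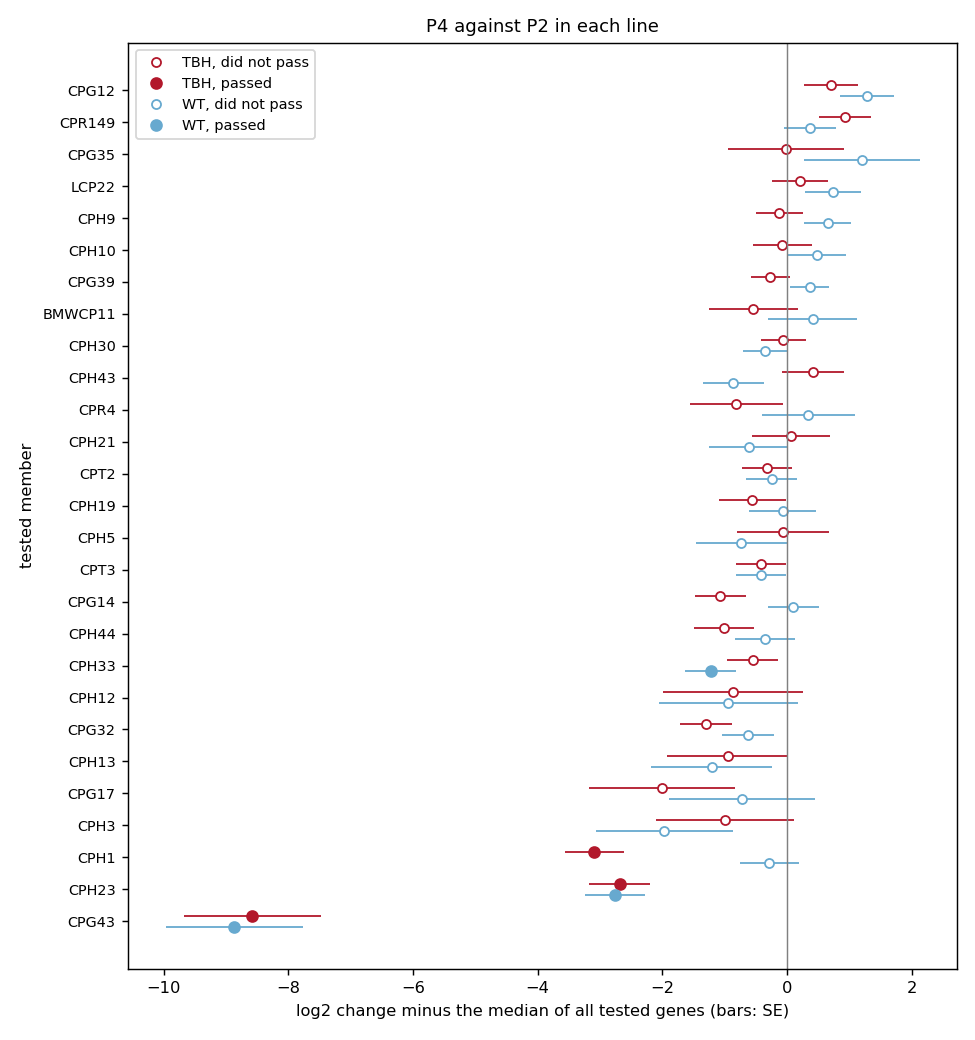
Change at P4 against P2 in each line for the 27 tested genes, as log2 change minus the median of all tested genes; bars are standard errors and filled points passed limma's adjusted threshold. CPG43 and CPH23 passed in both lines, CPH1 in TBH and CPH33 in WT.

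Other cuticle genes and tissue markers were read beside these stage changes. Of the 103 rows named BMORCPR, 20 were tested, and at P4 against P2 2 rose and 0 fell in TBH, and 2 rose and 1 fell in WT. BMORCPR26 rose in both: its values were 8.08, 7.35 and 17.8 in TBH P4 and 10.9, 13.9 and 11.85 in WT P4, against 0, 1.01 and 0 in TBH P2 and 0.88, 2.80 and 0.51 in WT P2. The 103 RR rows summed to 82.9 to 90.9 in TBH P4 and 70.5 to 91.8 in WT P4, against 57.3 to 58.8 in TBH P2 and 61.2 to 84.7 in WT P2. Among 9 neuropeptide-like 4 genes, 8 were tested, and all 8 fell in TBH and 7 in WT. Of all tested genes, 1.34% fell and 0.363% rose in TBH, and 3.09% fell and 1.01% rose in WT. All 8 neuropeptide-like 4 genes passed the filter only through their P2 values, so a fall was favoured by the choice of tested genes. Likewise, BMORCPR26 and BMORCPR49, the RR rows that rose in TBH, passed only through their P4 values, which favoured a rise. BMORCPR59, the RR row that fell in WT, passed only through its P2 values, which favoured a fall. The lists for chitin (1 tested of 2), pigmentation and sclerotization (2 of 5) and ecdysteroid-response transcription factors (1 of 2) gave 0 calls in either line.

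Markers of other tissues also moved with stage. Over all tested genes, 1.34% fell and 0.363% rose in TBH, and 3.09% fell and 1.01% rose in WT. Of 13 tested fat body and hemolymph genes, 4 fell in TBH and 6 in WT. Apart from LP and VG, the genes that fell passed the filter only through their P2 values, so a fall was favoured. The 19 listed genes summed to 127 to 242 in TBH P4 and 95.9 to 166 in WT P4, against 149 to 306 in TBH P2 and 283 to 331 in WT P2. Both tested muscle genes of 5 rose in WT and 0 passed in TBH, with sums of 721 to 1201 in TBH P4 and 1473 to 2074 in WT P4, against 457 to 615 in TBH P2 and 350.1 to 727 in WT P2. The silk gland list, whose name match also takes in serpins and serotonin genes, had 2 of 10 tested genes fall in TBH and 1 in WT. The follicle list (2 tested of 4) and the hemocyte list (1 of 2) gave 0 calls. The follicle list does not hold VMP23, which rose at P4 in both lines, with changes of 6.50 ± 0.33 in TBH (limma adjusted p = 1.5e-06) and 6.41 ± 0.33 in WT (limma adjusted p = 1.7e-06). The part of these tissues in the cuticle gene changes was not tested.

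Between lines, CPH1 was the single one of the 27 tested genes that passed. Outside the 27, of the 20 tested BMORCPR rows, 2 were higher and 1 lower in TBH at P4. Of these, BMORCPR49, which was higher, passed the filter only through its TBH P4 values. At P4 CPH1 was lower in TBH, with a change of -2.59 ± 0.47 (limma adjusted p = 0.022), with all 3 TBH libraries below all 3 WT libraries. That was 1 of 27 lower and 0 higher, where 0.802% of all tested genes were lower, 1.13% were higher and 1.93% passed in either direction. The call was lost in 6 of 15 alternative analyses, with adjusted p up to 0.11. Among these, limma adjusted p was 0.101 without TBH P4 replicate 1, 0.0902 without TBH P4 replicate 3, 0.11 without WT P4 replicate 1 and 0.0936 without WT P4 replicate 2.

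CPG14 at P4 averaged 11.2 ± 4.93 in TBH and 26.7 ± 14.0 in WT (SD, n = 3 each), and the groups overlapped. The change of -1.32 ± 0.41 had a 95% interval of -2.22 to -0.42 and did not pass (limma adjusted p = 0.254). For CPG43 the change at P4 was 0.13, with a 95% interval of -2.27 to 2.54, and for CPH44 it was -0.41, with an interval of -1.47 to 0.65. TBH and WT libraries lay apart with TBH lower for CPH1, CPH9 and CPG12, against 6.72% of all tested genes, and with TBH higher for CPH33, against 14.0%. CPH9 passed the filter only through its WT values, so a lower TBH level was favoured by the choice of tested genes. CPG12 had values of 1.09, 1.97 and 1.99 in TBH P4 and 2.5, 5.4 and 3.25 in WT P4. The 27 genes' median minus that of all genes was -0.35 at P4, and ran from -0.62 without TBH P4 replicate 2 to 0.01 without TBH P4 replicate 3. Without the filter, over 65 cuticle genes, it was -0.028, and with a pseudocount of 0.1 it was -0.50.

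At P2, 0 of the 27 passed between lines and 0 had an unadjusted limma p under 0.05. Of all tested genes, 1.49% passed, 0.821% higher and 0.669% lower in TBH, and 7.05% had an unadjusted p under 0.05. CPG43 changed by -0.18 in TBH against WT, with a 95% interval of -2.59 to 2.22, and CPH44 by 0.22, with an interval of -0.83 to 1.28. For CPH1 the change was 0.20, with an interval of -0.84 to 1.23. CPG39 was the 1 gene with all TBH libraries above all WT libraries, against 4.76% of all tested genes, and CPH30 the 1 with them below, against 4.16%. CPG39 passed the filter only through its TBH values and CPH30 only through its WT values. A difference between lines was therefore favoured by the choice of tested genes. The CPG39 values were 2.77, 2.23 and 1.45 in TBH P2 and 0.73, 0.98 and 1.11 in WT P2 (limma adjusted p = 0.717). The 27 genes' median minus that of all genes was -0.26 at P2, and ran from -0.60 without WT P2 replicate 1 to 0.47 without WT P2 replicate 2. Without the filter, over 65 cuticle genes, it was -0.10, and with sample weights it was 0.18.

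**Figure D5:**
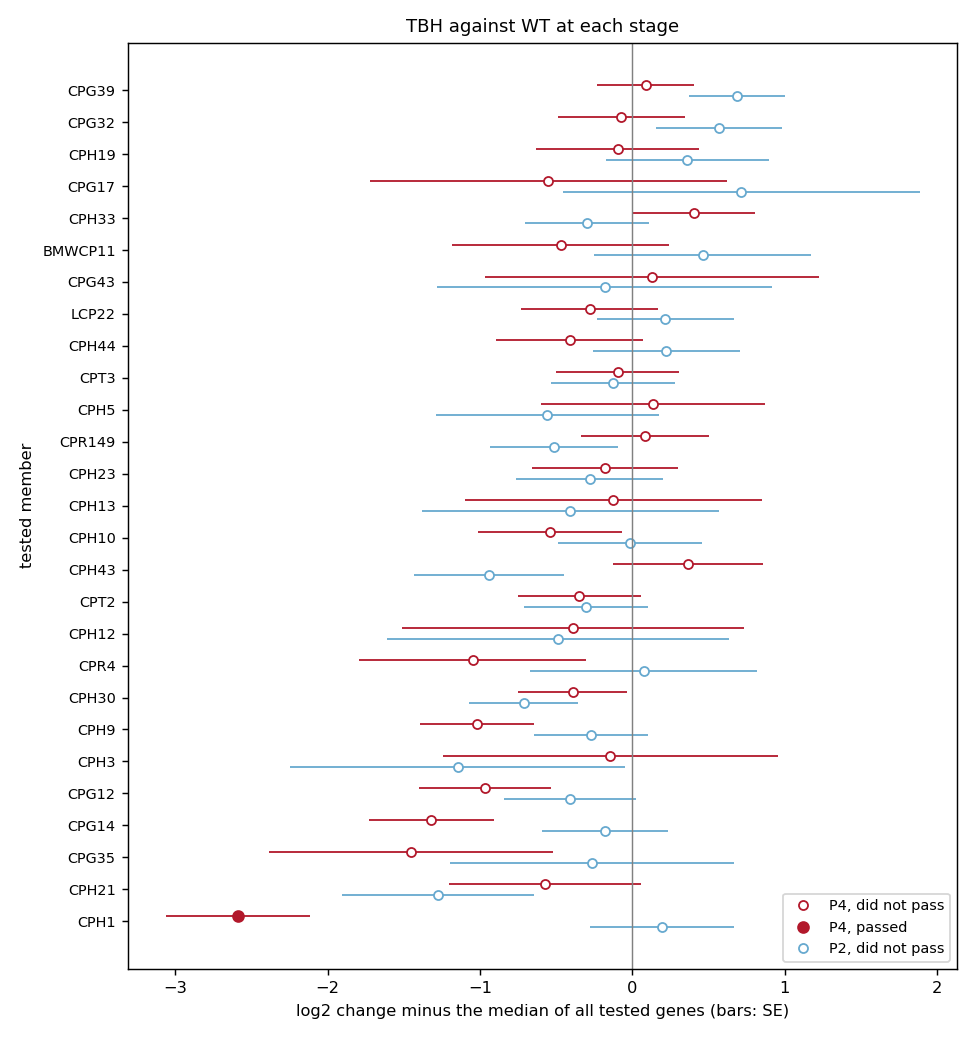
Change in TBH against WT at each stage for the 27 tested genes, as log2 change minus the median of all tested genes; bars are standard errors. CPH1 at P4 is the single filled point, the only one to pass limma's adjusted threshold.

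Whether the TBH effect differed between stages was tested directly, and 0 of 27 genes passed, where 0.287% of all tested genes did, 0.115% with a higher and 0.172% with a lower TBH effect at P4. CPH1 was the 1 gene of 27 with an unadjusted p under 0.05, against 5.14% of all tested genes, so this count is no higher than the background. Its TBH effect at P4 minus that at P2 was -2.79 ± 0.67, with a 95% interval of -4.25 to -1.33 (limma adjusted p = 0.284). The CPH1 call at P4 and its absence at P2 are therefore not shown to differ after adjustment. For CPG43 the difference was 0.31, with an interval of -3.09 to 3.71.

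Many CPH genes are neighbours in the genome. In the RefSeq gene table a run of 28 coding genes holds 23 CPH genes, of which 20 match a row kept by the rule. They give 21 rows because 2 rows named BMORCPH26 hold identical values. CPH27, the first gene of the run, has a row named BMORCPH27 that was left out as neuropeptide-like. The 21 rows summed to 3.59, 5.68 and 3.01 in TBH P4 and 8.58, 6.41 and 5.22 in WT P4, against 23.1, 12.3 and 17.4 in TBH P2 and 13.6, 111 and 13.1 in WT P2. P4 sums lay below P2 sums in every library, and WT P2 replicate 2 was far above its replicates. The separation of the stages rested on CPH23, which was 0 at P4 and held 9.18 of the 13.6 in WT P2 replicate 1. Without CPH23 the sums of the stages overlapped. Of the 7 tested among these 21 rows, CPH23 alone passed in any comparison. BMORCPH27, outside these sums, had 0, 5.12 and 0 in TBH P4 and 0 in each WT P4 library. At P2 it had 472, 365 and 434 in TBH and 189, 821 and 280 in WT. It fell by stage in TBH (-7.64 ± 0.67, limma adjusted p = 5.7e-05) and in WT (-8.04 ± 0.67, limma adjusted p = 2.5e-05). Like CPH23, BMORCPH27 passed the filter only through its P2 values.

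WT P2 replicate 2 also held the highest value of 20 of the 65 cuticle genes above 0, and of 9 of the 20 above 0 in the CPH run. That is 30.8% of the cuticle genes above 0, against 7.67% of all genes above 0. Among tested genes it held the highest value of 12 of 27 cuticle genes, against 7.68% of all genes. CPH3, picked after its values were seen, had 0.10, 0.39 and 0.09 in TBH P4 and 0.20, 0 and 0.29 in WT P4, against 2.99, 0.28 and 3.01 in TBH P2 and 0.79, 63.15 and 0.96 in WT P2. CPH12, CPH13 and CPG17, picked likewise, reached 42.2, 23.4 and 22.3 in that library. In the other WT P2 libraries these 3 genes were at most 0.33. TBH P2 replicates 1 and 3 were also high, with 3.04 and 4.1 for CPH12, 2.62 and 2.12 for CPH13, and 7.79 and 10.6 for CPG17, against at most 0.24 in TBH P2 replicate 2. The part of that library's make-up in these values was not tested.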

How the data were processed

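The authors deposited a single table of normalised expression signal per gene, with 12 library columns and 4 columns of group means that equal the mean of their 3 libraries within rounding. Its unit is not named. The submitters' processing notes list Cufflinks and DESeq2 with no version or role. The aligner, build and annotation used were not given in any source used here. Without counts, read depth is unknown and no counting interval is given.

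Libraries were grouped by title. Values were taken as log2(value + 1) for the 5235 genes that reached 1 in 3 or more libraries and fitted over all 12 libraries with limma 3.58.1 in R 4.3.3 (trended variance). P-values were Benjamini-Hochberg adjusted over all tested genes, with a threshold of 0.05. They test the change before the median of all tested genes was taken off. The code was tested on simulated data. A 3 against 3 exact permutation test cannot go below 0.1, so none was used. Named with values were members that passed in any contrast, CPG43, CPH44, and members averaging at least 20; others named were chosen after their values were seen. The members and lists were chosen with earlier results of these data known, and 2 name matches (VIG from the germ line list and USP46 from the transcription factor list) were removed by product after the table was read. RefSeq names (assembly ASM3026992v2) matched 49 members and were used for names and neighbours only. Alternatives were quantile scaling, equal totals, other filters and pseudocounts, sample weights, no trend, subset fits, a replicate block and leaving out libraries.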

Additional observations from a re-analysis of the deposited data

How the results depend on the processing

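CPG43 passed at P4 against P2 in both lines under all 16 alternatives, with log2 changes (not centred on the median) of -9.98 to -7.57 in TBH and -10.52 to -8.23 in WT. At P4 between lines the count of 1 became 0 with a mean filter of 10, with only the groups compared, and with replicate 2 of WT P2 and replicate 3 of TBH P4 both left out; leaving out 1 library gave 0 to 1. The stage count of 3 became 1 in each line with the mean filter of 10, which keeps 4 members. It became 1 in WT with only the groups compared and 6 in TBH with sample weights, which added CPG32, CPH44 and CPG14. The counts at P2 and for the difference between stages stayed 0 in every alternative run; the subset fit does not apply to that difference, which uses all 4 groups. Same-numbered libraries correlated at -0.176 to 0.065, so numbers were not taken as pairs; with the replicate block the WT stage count was 2, CPH33 having an adjusted p of 0.0773.

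Uncalled changes, given here without centring on the median, turned sign, and the cause was not tested. With sample weights CPG43 was 0.085 at P2, -1.12 at P4 and -1.21 for the difference, and CPH44 was 0.086 at P4. Leaving out 1 library moved CPG43 over -0.49 to 0.25 at P2, -0.75 to 1.53 at P4 and -0.56 to 1.72 for the difference. It turned CPG43 without WT P2 replicate 2 (0.25 at P2), TBH P4 replicate 2 (-0.72 at P4, -0.54 for the difference) and WT P4 replicate 1. It moved CPH44 over -0.096 to 0.83 at P2 (turned without WT P2 replicate 1, -0.077, or 3) and -0.57 to 0.060 at P4 (turned without TBH P4 replicate 3 or WT P4 replicate 1, 0.050). It moved CPG14 over -0.39 to 0.084 at P2 (turned without WT P2 replicate 3) and -0.71 to 0.011 in WT by stage (turned without WT P4 replicate 2). With both named libraries out, CPG43 was 0.25 at P2 and -0.12 for the difference, and CPH44 was 0.060 at P4. With quantile scaling CPG14 in WT by stage was 0.24, against -0.33 in the main fit before centring. Over all genes, quantile scaling moved higher and lower calls to 60 and 79 between lines at P4 (59 and 42 as reported), to 111 and 85 in WT by stage (53 and 162) and to 38 and 55 in TBH (19 and 70). Calls over all genes ran from 21 to 157 between lines at P2, 58 to 459 at P4, 72 to 1193 in WT by stage (141 with the replicate block), 55 to 933 in TBH and 5 to 33 for the difference.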
